A study of Homo sapiens with 30 samples.

Results

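The 39 genes described here encode proteins that commit a cell to S phase and copy its DNA. They were chosen by name from the 60675 genes of an RNA sequencing table of HT29, an established cell line from a human colorectal adenocarcinoma, and fall into 7 roles: licensing of origins (10 genes), activation of the helicase (6), the sliding clamp and its loader (5), polymerases and primase (6), supply of deoxynucleotides (4), control of entry into S phase (4), and maturation of the new strand and its chromatin (4). For 24 h the cultures were given extracts, made in 70% ethanol, of Bojungikgi-tang, Sayeok-tang, Banhasasim-tang or Yijung-tang, Korean herbal formulas used for digestive complaints, or with vehicle. Messenger RNA libraries were made from bulk RNA, and the 30 libraries formed 13 groups. Bojungikgi-tang and Sayeok-tang had 3 libraries at each of 20, 100 and 500 µg/mL, Banhasasim-tang had 2 at each dose (replicates 2 and 3), Yijung-tang had 1 at each dose (replicate 3), and the vehicle, labelled 0.1% DMSO, had 3. Every group was the same cell line, with no other treatment named. The labels do not say that replicates were separate cultures, so p-values measure the spread between these libraries, which may be technical.

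Before S phase, the origin recognition complex (ORC1, ORC6) with CDC6 and CDT1 loads the MCM2 to MCM7 ring onto origins of replication. CDC45, the GINS complex (GINS1 to GINS4) and MCM10 turn the loaded ring into an active helicase, after which primase and polymerase alpha begin each strand and polymerases delta and epsilon extend it, held by the PCNA clamp that RFC proteins load. E2F transcription factors, released when cyclin E kinase and its partners inactivate the retinoblastoma protein, are known to bind and activate the promoters of many of these genes, so their mRNAs rise together as cells pass from G1 into S. In bulk RNA, more cells in S phase and more mRNA per cell cannot be told apart.

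The promoters of the 5 genes called between doses are shown first, with that of MCM6, which was added because it had the most E2F matches. E2F sites are the feature for which such promoters are known. RefSeq promoters of build GRCh38.p14, each 300 bases (250 before the start of transcription and 50 after it), were matched by symbol for 35 of the 39 genes. The E2F motif was searched as TTTCCCGC, TTTGGCGC or TTTCGCGC on both strands, and neighbouring matches may overlap. It was found in 20 of the 35 promoters (57.1%), against 519 of 11946 promoters of all genes tested (4.34%) and 763 of all 27305 promoters (2.79%). Of 33 promoters of other replication factors 24.2% held it, and of 18 promoters of G2/M genes 11.1%. The CCAAT box, searched as CCAAT on both strands, was in 57.1% of the 35 promoters and in 36.5% of promoters of genes tested. The CHR element of late cell cycle genes, searched as TTTGAA or TTCGAA on both strands, was in 5.71% of the 35, in 11.6% of promoters of genes tested and in 66.7% of the G2/M promoters. A match is a string of letters and not a measured binding site. The sequences below run 5′ to 3′ on the strand of the gene, with E2F matches in capitals. MCM6 (chr2:135876394-135876693, minus strand) has 4 matches that overlap in pairs, CDC6 (chr17:40287629-40287928, plus strand) and CDT1 (chr16:88803539-88803838, plus strand) have 1 each, and ORC1 (chr1:52404374-52404673, minus strand), PRIM1 (chr12:56752274-56752573, minus strand) and RRM2 (chr2:10122489-10122788, plus strand) have no match in this window.
MCM6: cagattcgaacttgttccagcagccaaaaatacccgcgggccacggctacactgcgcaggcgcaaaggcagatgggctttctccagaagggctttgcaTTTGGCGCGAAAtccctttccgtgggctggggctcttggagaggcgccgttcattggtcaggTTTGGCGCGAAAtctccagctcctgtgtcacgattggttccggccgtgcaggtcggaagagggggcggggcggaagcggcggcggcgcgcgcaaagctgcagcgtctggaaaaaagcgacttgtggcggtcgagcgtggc
CDC6: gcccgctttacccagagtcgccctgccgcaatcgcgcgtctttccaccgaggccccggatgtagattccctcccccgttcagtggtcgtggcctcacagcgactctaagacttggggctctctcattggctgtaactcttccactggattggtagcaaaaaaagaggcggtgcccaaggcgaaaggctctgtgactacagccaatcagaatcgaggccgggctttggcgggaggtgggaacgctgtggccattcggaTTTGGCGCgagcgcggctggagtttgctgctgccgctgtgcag
CDT1: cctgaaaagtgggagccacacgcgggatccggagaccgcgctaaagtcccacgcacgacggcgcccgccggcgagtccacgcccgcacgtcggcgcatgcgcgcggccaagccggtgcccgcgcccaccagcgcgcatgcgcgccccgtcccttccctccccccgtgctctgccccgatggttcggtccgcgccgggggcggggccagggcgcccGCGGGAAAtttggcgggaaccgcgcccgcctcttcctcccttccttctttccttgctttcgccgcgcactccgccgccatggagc
ORC1: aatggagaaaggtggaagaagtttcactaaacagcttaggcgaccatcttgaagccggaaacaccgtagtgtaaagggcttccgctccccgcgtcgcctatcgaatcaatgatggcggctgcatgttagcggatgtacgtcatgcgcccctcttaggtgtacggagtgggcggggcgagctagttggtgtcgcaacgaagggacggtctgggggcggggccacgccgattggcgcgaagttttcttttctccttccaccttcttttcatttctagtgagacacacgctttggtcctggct
PRIM1: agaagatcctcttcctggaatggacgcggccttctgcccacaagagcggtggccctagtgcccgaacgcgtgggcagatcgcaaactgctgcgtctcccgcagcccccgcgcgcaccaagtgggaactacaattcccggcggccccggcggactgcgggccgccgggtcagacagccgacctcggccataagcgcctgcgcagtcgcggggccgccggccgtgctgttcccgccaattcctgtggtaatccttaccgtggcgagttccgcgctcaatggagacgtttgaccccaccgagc
RRM2: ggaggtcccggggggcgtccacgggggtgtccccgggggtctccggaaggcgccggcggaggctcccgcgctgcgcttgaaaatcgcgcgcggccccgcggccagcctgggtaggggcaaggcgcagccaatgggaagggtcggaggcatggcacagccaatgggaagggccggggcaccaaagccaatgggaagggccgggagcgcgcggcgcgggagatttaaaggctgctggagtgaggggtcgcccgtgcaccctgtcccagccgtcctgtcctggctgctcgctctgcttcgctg

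All 39 genes passed the filter on low counts, as did 18783 genes in all. Their summed level was 0.364 to 0.43% of all counts, with between 345 and 29056 counts per gene and library. Levels are given in CPM, counts per 1e6 counts after TMM scaling, and per kb of exon where genes are compared. On the scale of CPM per kb, PCNA, the sliding clamp, had the highest mean level at 154, followed by the helicase subunit MCM7 at 90.9 and thymidine kinase TK1 at 77.3. GINS4 at 1.76, the transcription factor E2F2 at 1.83 and cyclin E2 (CCNE2) at 3.19 were lowest, and the median gene had 15.4. The 39 genes moved little across the study: the highest library exceeded the lowest by 1.15-fold to 1.51-fold per gene, with a median of 1.3-fold. The largest group difference of a gene in any comparison of 2 groups was 1.29-fold, for PRIM1. Of the 39, 17 overlap a gene on the opposite strand in GENCODE 29, among them TYMS (ENOSF1, TYMSOS), RFC4 (EIF4A2), PRIM1 (HSD17B6), FEN1 (TMEM258) and MCM7 (AP4M1). Overlap was taken over whole gene spans, introns included, and shared exons were not checked. The library kit marks strand, but the strand setting of the counting is not known here. Where exons are shared, reads of the gene and of that neighbour may therefore not have been told apart.

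Total counts per library, in units of 1e6, were 36.3 to 71.6. The epithelial markers EPCAM (496 to 629 CPM) and KRT8 (4904 to 7437 CPM) were high in every library, and all 9 epithelial markers passed the filter. CDX2 (4.75 to 7.52 CPM) and CEACAM5 (4.58 to 8.66 CPM) were the lowest of the 9. Markers of fibroblasts and endothelium summed to 2.56 to 3.67 CPM over 8 genes, with COL1A2, COL3A1, VIM, PDGFRB, VWF and CDH5 at or below 0.128 CPM. COL1A1 had 0.938 to 1.69 CPM and PECAM1 1.28 to 2.22 CPM. The 6 leukocyte markers summed to 1579 to 2022 CPM, nearly all of it LYZ (1575 to 2019 CPM), while PTPRC, CD3E and HBB stayed at or below 0.0737 CPM. Vehicle replicate 1 and Bojungikgi-tang 500 µg/mL replicate 2 stood at opposite ends of the first principal component (12.2% of variance), at -57.3 and 32.3 with the other libraries between -28.7 and 13.4. They also had the highest and lowest share of counts in cytosolic ribosomal protein genes, 6.91% and 3.78%. In both Banhasasim-tang 500 µg/mL libraries, mitochondrial ribosomal RNA took 12.9% and 9.41% of counts, against 0.914 to 1.91% in all others. Many, but not all, of the calls that were lost without these libraries are named below, and the part of these shares in the results was not tested otherwise.

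Between 500 and 20 µg/mL of the same extract, most of the 39 genes were slightly higher at the higher dose. In Bojungikgi-tang the log2 difference was above 0 for 36 genes and below 0 for 3, with a median of 0.093, against a median of 0.001 over all genes tested, of which 50.2% were above 0. In Sayeok-tang 37 were above 0 and 2 below (median 0.107, against 0.004 over all genes, 51.4% above 0). In Banhasasim-tang 29 were above 0 and 10 below (median 0.086, against 0.005 over all genes, 51% above 0). Few passed the test for single genes. By edgeR's quasi-likelihood test at a Benjamini-Hochberg adjusted p of 0.05, 2 of 39 genes were higher in Bojungikgi-tang (0.602% of all genes tested were called higher and 1.76% in either direction), 1 of 39 in Sayeok-tang (1.14% and 3.17%) and 2 of 39 in Banhasasim-tang (3.82% and 7.82%). None of the 39 was called lower in these comparisons. At an unadjusted p under 0.05 there were 13 of 39 genes in Bojungikgi-tang (33.3%, against 12.9% of all genes tested), 19 in Sayeok-tang (48.7%, against 13.9%) and 12 in Banhasasim-tang (30.8%, against 20.6%).

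**Figure D1:**
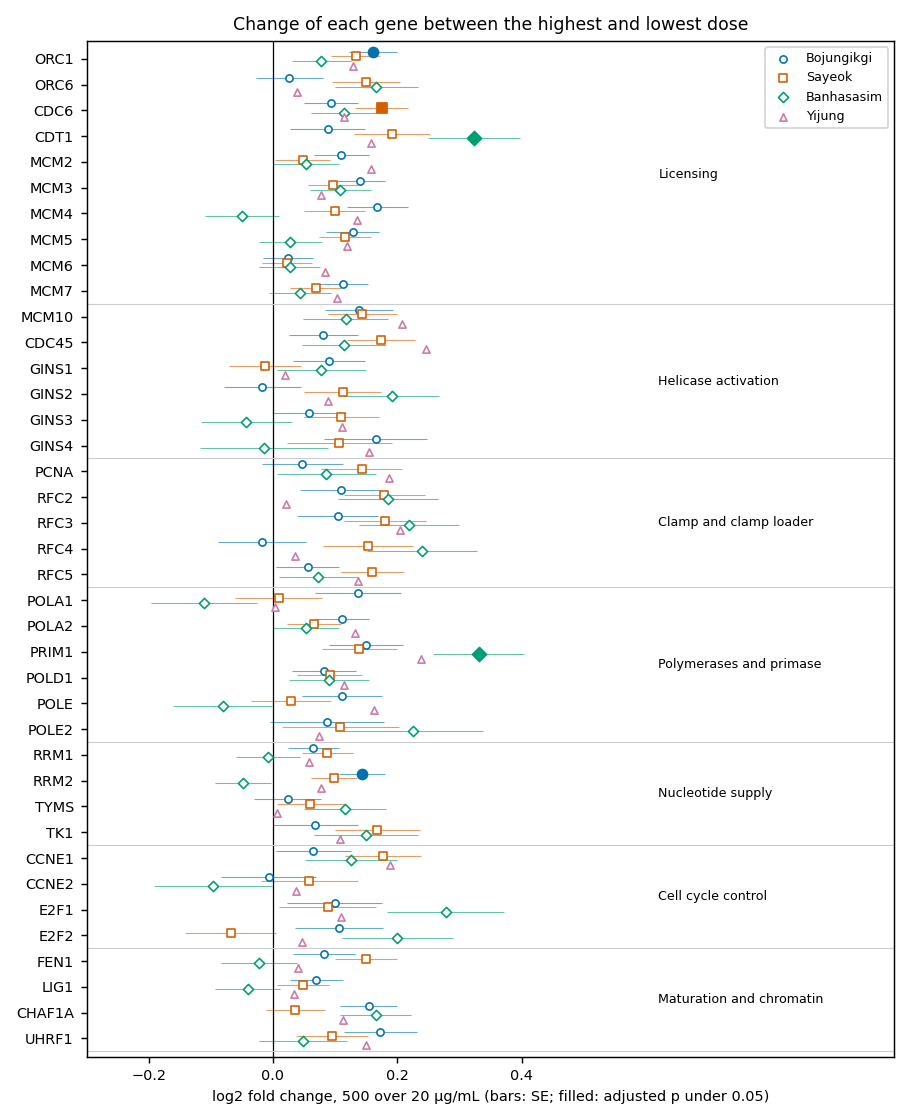
Log2 fold change of each of the 39 genes, 500 over 20 µg/mL, for the 4 extracts, with the genes in rows grouped by role. Bars are SEs, filled symbols passed the test, and Yijung-tang has 1 library per dose and neither SE nor test. Most symbols lie right of 0, with medians of 0.093 in Bojungikgi-tang, 0.107 in Sayeok-tang, 0.086 in Banhasasim-tang and 0.111 in Yijung-tang.

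Among licensing genes, ORC1, the subunit that with its partners marks origins, was called in Bojungikgi-tang. It had 37.6, 36.4 and 36.6 CPM at 500 µg/mL, against 32.0, 32.9 and 34.0 CPM at 20 µg/mL. All 500 µg/mL libraries lay above all 20 µg/mL libraries, and the log2 difference was 0.16 ± 0.038 (SE; edgeR quasi-likelihood test, adjusted p = 0.0248). CDC6, the ATPase that helps load the helicase, was called in Sayeok-tang, with 91.4, 92.6 and 90.6 CPM at 500 µg/mL against 79.2, 81.8 and 82.2 CPM at 20 µg/mL. The groups did not overlap, and the log2 difference was 0.175 ± 0.043 (SE; edgeR, adjusted p = 0.0221). CDT1, the helicase loader that geminin inhibits, was called in Banhasasim-tang, with 64.7 and 60.3 CPM at 500 µg/mL against 51.5 and 48.5 CPM at 20 µg/mL. Both libraries of the higher dose were above both of the lower, and the log2 difference was 0.32 ± 0.074 (SE; edgeR, adjusted p = 0.00527). Such separation, with the higher dose above, held for 9.7%, 11.1% and 27.5% of all genes in Bojungikgi-tang, Sayeok-tang and Banhasasim-tang (17, 20 and 26 of the 39). With the higher dose below, it held for 9.03%, 10.9% and 25.2% of all genes (0, 0 and 4 of the 39). All 10 licensing genes were above 0 in Bojungikgi-tang (median 0.111) and Sayeok-tang (0.108), and 9 of 10 in Banhasasim-tang (0.065), MCM4 being the exception at -0.050.

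Ribonucleotide reductase makes deoxynucleotides, and its small subunit RRM2 was called in Bojungikgi-tang. RRM2 had 345, 347 and 343 CPM at 500 µg/mL, against 309.7, 316 and 312 CPM at 20 µg/mL, a log2 difference of 0.14 ± 0.037 (SE; edgeR, adjusted p = 0.0421) with no overlap between the groups. All 4 genes of nucleotide supply were above 0 in Bojungikgi-tang and in Sayeok-tang, and 2 of 4 in Banhasasim-tang, where RRM2 was at -0.049. PRIM1, the catalytic subunit of primase, was called in Banhasasim-tang. It had 25.96 and 23.92 CPM at 500 µg/mL and 19.4 and 20.2 CPM at 20 µg/mL, again without overlap, and the log2 difference was 0.33 ± 0.073 (SE; edgeR, adjusted p = 0.004). Without overlap and higher at 500 µg/mL were 27.5% of all genes in Banhasasim-tang and 9.7% in Bojungikgi-tang. The 6 genes of polymerases and primase were all above 0 in Bojungikgi-tang (0.082 to 0.15) and Sayeok-tang (0.009 to 0.14), whereas 4 of 6 were above 0 in Banhasasim-tang, with POLA1, the catalytic subunit of polymerase alpha, at -0.11.

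In the other roles no gene was called between 500 and 20 µg/mL. The clamp and its loader had 4, 5 and 5 of 5 genes above 0 in Bojungikgi-tang, Sayeok-tang and Banhasasim-tang, with medians of 0.056, 0.16 and 0.185. Of 6 helicase activation genes 5, 5 and 4 were above 0. Of 4 control genes (CCNE1, CCNE2, E2F1, E2F2), 3 were above 0 in each extract, and CCNE2 was at -0.007 in Bojungikgi-tang and -0.097 in Banhasasim-tang. The maturation and chromatin genes FEN1, which trims Okazaki fragments, LIG1, which seals them, CHAF1A, which deposits histones on new DNA, and UHRF1, which maintains DNA methylation, were all above 0 in Bojungikgi-tang and Sayeok-tang, and 2 of 4 in Banhasasim-tang.

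These 5 calls rested on few libraries. Leaving out any one of the 6 Bojungikgi-tang libraries left neither ORC1 nor RRM2 called (adjusted p 0.0542 to 0.166 for ORC1 and 0.111 to 0.201 for RRM2, edgeR). The CDC6 call held without Sayeok-tang 20 µg/mL replicate 3 (adjusted p = 0.0429, edgeR), and was lost without each of the other 5 libraries (0.0651 to 0.149). CDT1 was lost without Banhasasim-tang 500 µg/mL replicate 2 (adjusted p = 0.106, edgeR) or 20 µg/mL replicate 3 (0.109), and PRIM1 without 500 µg/mL replicate 2 (0.116) or 20 µg/mL replicate 2 (0.0649). With RNA composition left uncorrected, by scaling to the total count, 36 of the 39 genes stayed above 0 in Bojungikgi-tang, 35 in Sayeok-tang and 36 in Yijung-tang, but 12 in Banhasasim-tang, where the median was -0.049 and that of all genes tested -0.13. Scaled to the total count without mitochondrial genes, 27 of 39 were above 0 in Banhasasim-tang (median 0.055, all genes -0.026). Without Bojungikgi-tang 500 µg/mL replicate 2, all 39 genes were above 0 in that extract (median 0.116), and leaving out any other single library left 33 to 37.

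Yijung-tang had 1 library per dose, so its difference has no replicate check and no test. All 39 genes were higher in the 500 µg/mL library than in the 20 µg/mL library, with log2 ratios of 0.004 to 0.247 and a median of 0.111, against a median of 0.006 over all genes, of which 51.6% were above 0. Under median-ratio size factors 37 of 39 were above 0. None of the 39 differed by 1.5-fold, as 9.02% of all genes did. The 3 doses of Yijung-tang summed to 3997, 4130 and 4306 CPM over the 39 genes at 20, 100 and 500 µg/mL.

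The mean was higher at 500 than at 20 µg/mL in all 4 extracts for 25 of the 39 genes (64.1%), against 14.8% of all genes tested, and in 3 of 4 extracts for another 13 (33.3%, against 22.7%). CCNE2 was the remaining gene, higher in 2 extracts. The 4 comparisons share no libraries. Means were in rising order over 20, 100 and 500 µg/mL for 29 genes in Bojungikgi-tang (23% of all genes), 20 in Sayeok-tang (19%), 22 in Banhasasim-tang (26%) and 26 in Yijung-tang (20.3%), and in falling order for 2 genes, both in Banhasasim-tang. Of all genes, 22.5%, 19.7%, 23.9% and 17.4% were in falling order in Bojungikgi-tang, Sayeok-tang, Banhasasim-tang and Yijung-tang. As these genes were picked with earlier results of these data known, the counts describe them and are not a test. Summed over the 39 genes, Bojungikgi-tang had 3945 ± 13.2, 4082 ± 69.5 and 4232 ± 83.6 CPM at 20, 100 and 500 µg/mL (SD, n = 3 each). Sayeok-tang had 3897 ± 37.5, 4032 ± 84.3 and 4169 ± 28.5 CPM (SD, n = 3 each), and Banhasasim-tang 3893 ± 4.87, 3963 ± 9.68 and 4040 ± 18.8 CPM (SD, n = 2 each). The vehicle had 4031 ± 65.1 CPM (SD, n = 3), between the 20 and 500 µg/mL means of each of the 4 extracts. Its libraries spanned 3984 to 4105 CPM, which includes Yijung-tang at 20 µg/mL and the Banhasasim-tang mean at 500 µg/mL. The placement also depended on scaling. Scaled to the total count, median log2 differences from vehicle at 20 µg/mL were 0.027, 0.012, 0.017 and 0.045 in Bojungikgi-tang, Sayeok-tang, Banhasasim-tang and Yijung-tang (all genes 0.049, 0.053, 0.054 and 0.046). Banhasasim-tang at 500 µg/mL then had -0.02 (all genes -0.09).

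**Figure D2:**
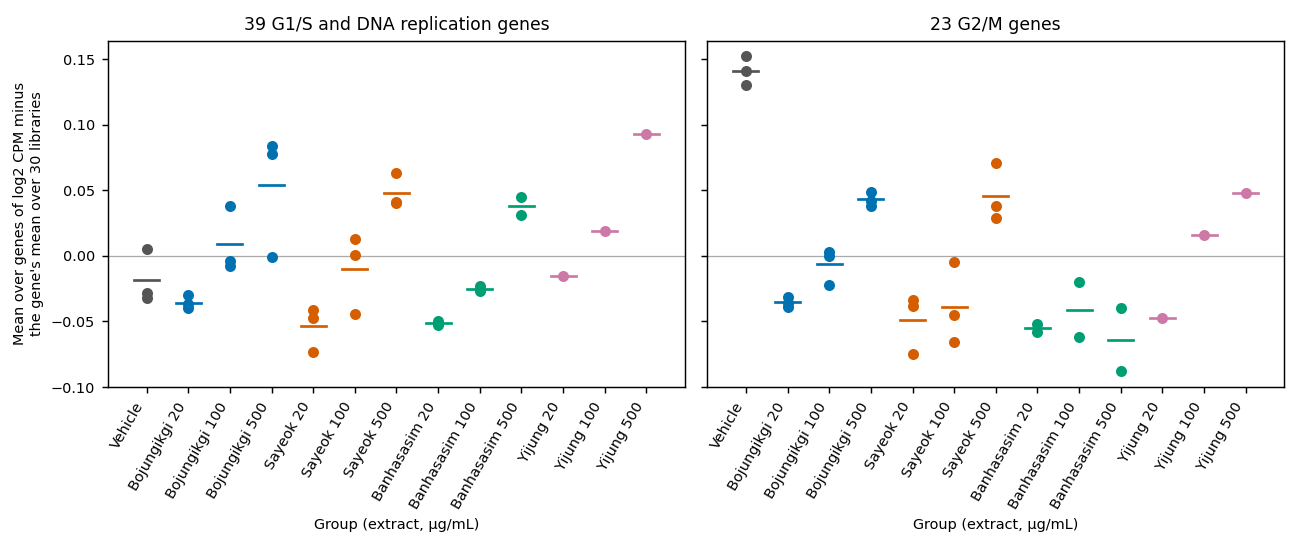
Mean over genes of log2 CPM minus the gene's mean over all 30 libraries, for the 39 genes (left) and the 23 G2/M genes (right), by extract and dose in µg/mL. Points are libraries and lines are group means. The vehicle lies at -0.032 to 0.005 on the left and at 0.13 to 0.152 on the right.

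**Figure D3:**
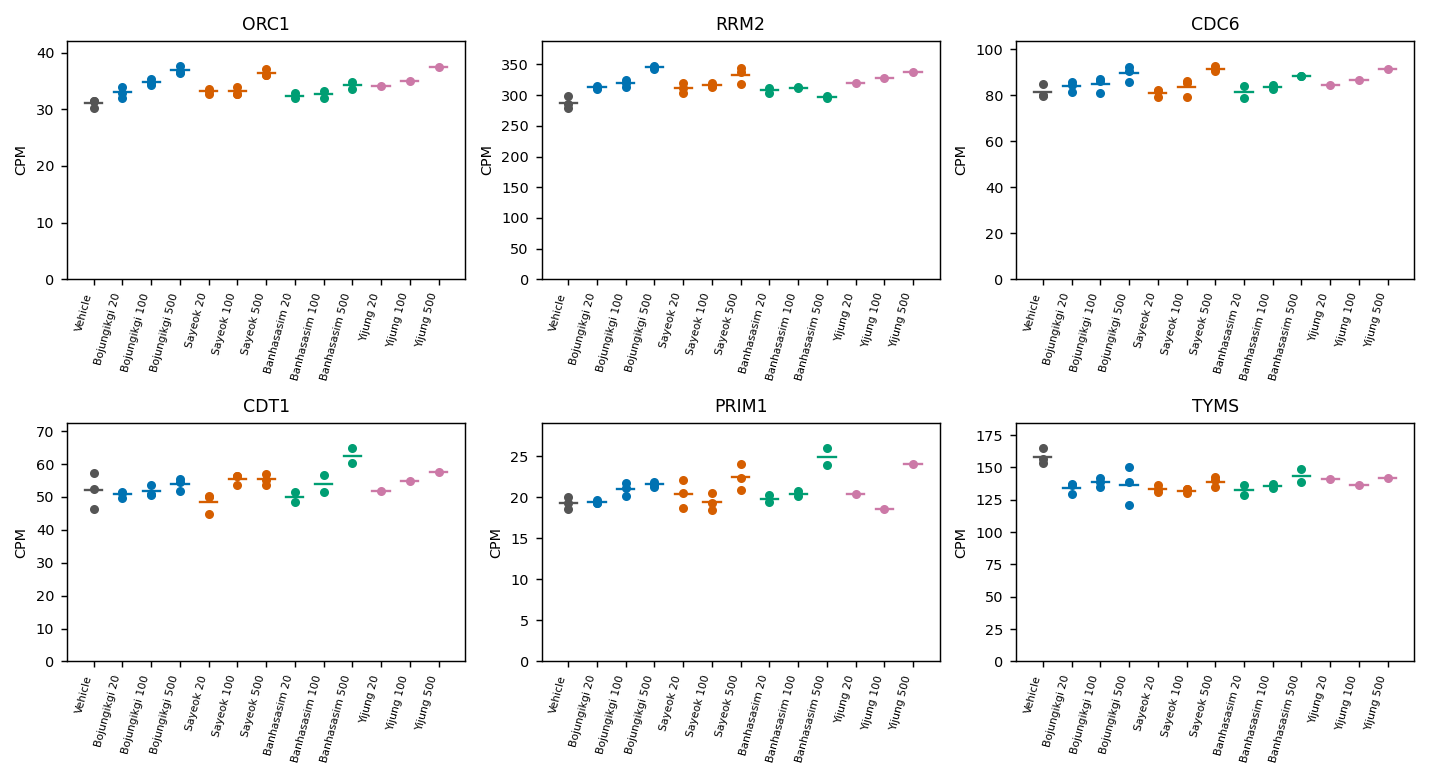
Level in CPM of ORC1, RRM2, CDC6, CDT1, PRIM1 and TYMS in each library, by extract and dose in µg/mL. Points are libraries and lines are group means. CDT1 and PRIM1 stood highest in Banhasasim-tang at 500 µg/mL, at 62.5 and 24.9 CPM on average, and RRM2 in Bojungikgi-tang at 500 µg/mL, at 345 CPM.

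Against vehicle, the genes most often called higher were MCM6, RRM2, MCM10, ORC1 and POLA1, and those most often called lower were TYMS, TK1 and LIG1. All 9 comparisons share the same 3 vehicle libraries, so their calls are not independent of each other. At 500 µg/mL, edgeR called 15 genes higher and 2 lower in Bojungikgi-tang (14.3% and 15.4% of all genes), 12 and 2 in Sayeok-tang (8.33% and 8.27%) and 7 and 2 in Banhasasim-tang (8.16% and 7.12%). At 100 µg/mL the counts were 7 higher and 3 lower in Bojungikgi-tang (7.58% and 8.2% of all genes), 4 and 3 in Sayeok-tang (6.47% and 7.57%), and 1 and 3 in Banhasasim-tang (6.3% and 5.56%). At 20 µg/mL they were 3 and 4 in Bojungikgi-tang (9.11% and 9.2%), 5 and 8 in Sayeok-tang (8.86% and 10.1%), and 1 and 4 in Banhasasim-tang (6.43% and 6.23%). Median log2 differences over the 39 genes at 20, 100 and 500 µg/mL were -0.024, 0.008 and 0.075 in Bojungikgi-tang, -0.047, 0.035 and 0.059 in Sayeok-tang, and -0.041, 0.021 and 0.057 in Banhasasim-tang. Those of all genes tested lay between -0.015 and 0.003 in the 9 comparisons. Without vehicle replicate 1 the medians of the 39 genes at 20, 100 and 500 µg/mL were 0.006, 0.034 and 0.109 in Bojungikgi-tang, -0.026, 0.046 and 0.053 in Sayeok-tang, and -0.013, 0.023 and 0.062 in Banhasasim-tang, so that the sign turned in Bojungikgi-tang at 20 µg/mL. The median in Bojungikgi-tang at 500 µg/mL was 0.048 without its replicate 3 and 0.112 without its replicate 2, and that in Banhasasim-tang at 100 µg/mL was -0.008 without vehicle replicate 3.

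Calls against vehicle depended on single libraries, above all on vehicle replicate 1. Without it, 9, 6 and 7 genes were called at 500 µg/mL in Bojungikgi-tang, Sayeok-tang and Banhasasim-tang (17, 14 and 9 with it), 1, 3 and 1 at 100 µg/mL (10, 7 and 4 with it), and 2, 3 and 0 at 20 µg/mL (7, 13 and 5 with it). Of all genes, 15.1%, 7.66% and 11.7% were then called at 500 µg/mL, 2.61%, 2.56% and 3.3% at 100 µg/mL, and 4.5%, 5.28% and 3.24% at 20 µg/mL, so the counts of the 39 genes and of all genes fell together. Of 86 calls against vehicle, 31 held without that library. Other libraries cut some comparisons as far. Sayeok-tang gave 6 calls at 500 µg/mL without its replicate 2 (9.48% of all genes) and 1 at 100 µg/mL without its replicate 2 (5.19%). Banhasasim-tang gave 5 at 500 µg/mL without replicate 2 (10.3%) or 3 (7.82%), 0 at 100 µg/mL without replicate 3 (1.07%), and 0 at 20 µg/mL without replicate 2 (2.09%) or 3 (1.59%). In Bojungikgi-tang at 500 µg/mL 13 genes were called without replicate 2, the library that stood apart (16.5% of all genes). Of the 17 calls with it, PRIM1, POLE, TYMS, TK1, E2F2, CHAF1A and UHRF1 were lost. Banhasasim-tang at 500 µg/mL lost ORC1, CDT1, RFC4 and FEN1 without its replicate 2, and ORC1, MCM6, MCM10 and FEN1 without its replicate 3. Sayeok-tang at 500 µg/mL lost MCM5, MCM6, RFC3, RFC5, POLA1, PRIM1, CCNE2 and LIG1 without its replicate 2. Of the 39 genes, 11 were called in none of the 9 comparisons.

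MCM6, a subunit of the helicase ring, had 142, 139.6 and 147 CPM in Bojungikgi-tang 500 µg/mL, 138, 143 and 136 CPM in Sayeok-tang 500 µg/mL and 139 and 145 CPM in Banhasasim-tang 500 µg/mL, against 123, 124 and 128 CPM in vehicle. All 27 extract libraries, at 131 to 149 CPM, lay above all 3 vehicle libraries. Log2 differences at 20, 100 and 500 µg/mL were 0.165, 0.21 and 0.19 in Bojungikgi-tang, 0.13, 0.14 and 0.15 in Sayeok-tang and 0.155, 0.2 and 0.18 in Banhasasim-tang (edgeR, adjusted p 0.00127 to 0.0281), and 5 of the 9 calls held without vehicle replicate 1 (those in Bojungikgi-tang at all doses and in Banhasasim-tang at 100 and 500 µg/mL). ORC1, at 32.0 to 37.6 CPM, also lay above the vehicle (30.2, 31.5 and 31.4 CPM) in all 27 extract libraries, and was called in Bojungikgi-tang at 100 µg/mL (0.16 ± 0.039 SE, adjusted p = 0.00846) and 500 µg/mL (0.25 ± 0.039, adjusted p = 9.13e-05), in Sayeok-tang at 500 µg/mL (0.23 ± 0.039, adjusted p = 3.02e-04) and in Banhasasim-tang at 500 µg/mL (0.14 ± 0.043, adjusted p = 0.0289). Without vehicle replicate 1 the ORC1 calls held at 500 µg/mL in Bojungikgi-tang (adjusted p = 0.00144) and Sayeok-tang (0.0034), and were lost in Bojungikgi-tang at 100 µg/mL (0.0716) and Banhasasim-tang at 500 µg/mL (0.11). MCM6 and ORC1 were 2 of 39 genes with all extract libraries above the vehicle, a pattern of 2.94% of all genes. Those with all below were TYMS, TK1 and LIG1, 3 of 39, a pattern of 3.66% of all genes.

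MCM3, MCM4, MCM5, CDC6 and CDT1 were also called higher at 500 µg/mL in some extracts, whereas ORC6 was called lower in 3 of the 9 comparisons with vehicle and MCM7 in 1. MCM2 was called in none of the 9, with differences of -0.077 to 0.048, above 0 in 3. The ORC6 differences were -0.231 to 0.036, above 0 in 1 comparison, and 2 of its calls held without vehicle replicate 1. MCM3 was called higher in Bojungikgi-tang at 500 µg/mL (0.138, edgeR adjusted p = 0.0117), a call lost without vehicle replicate 1 (0.0922). MCM4 had 382, 441 and 381 CPM in Bojungikgi-tang, 374, 389.9 and 384 CPM in Sayeok-tang and 340.2, 327 and 338 CPM in vehicle, without overlap (log2 differences of 0.26 ± 0.049 and 0.19 ± 0.049, edgeR adjusted p = 5.03e-04 and 0.00954). MCM5 had 120.3, 118.5 and 122 CPM in Bojungikgi-tang, 119.7, 115.5 and 115 CPM in Sayeok-tang and 111, 108 and 102 CPM in vehicle (0.17 ± 0.042 and 0.13 ± 0.042, adjusted p = 0.00427 and 0.041). The MCM4 and MCM5 calls held without vehicle replicate 1 (edgeR adjusted p = 0.00227 to 0.0366). That of MCM5 in Sayeok-tang was lost without vehicle replicate 2 and without vehicle replicate 3. CDC6 was called in Bojungikgi-tang (0.13 ± 0.043, adjusted p = 0.022) and Sayeok-tang (0.17 ± 0.043, adjusted p = 0.0106), and CDT1 in Banhasasim-tang (0.265 ± 0.067, adjusted p = 0.00751). Both CDC6 calls were lost without vehicle replicate 1 (adjusted p = 0.113 and 0.0571, edgeR), and that of CDT1 held (8.19e-04). In helicase activation MCM10, which joins the helicase to the polymerase machinery, had 41.4, 45.3 and 41.6 CPM in Bojungikgi-tang 500 µg/mL, 40.5, 41.9 and 43.8 CPM in Sayeok-tang 500 µg/mL, 39.4 and 41.6 CPM in Banhasasim-tang 500 µg/mL, and 32.9, 34.1 and 36.9 CPM in vehicle. The groups did not overlap, and the log2 differences were 0.30 ± 0.055, 0.28 ± 0.055 and 0.225 ± 0.062 (edgeR, adjusted p = 3.72e-04, 0.00138 and 0.0135). Without vehicle replicate 1 the adjusted p was 0.00506, 0.0127 and 0.0604 in Bojungikgi-tang, Sayeok-tang and Banhasasim-tang, and 2 of the 5 calls of MCM10 over all doses held. CDC45 and the 4 GINS genes were called in none of the 9 comparisons.

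Among clamp loaders RFC3 was called at 500 µg/mL in each of these extracts. It had 97.3, 79.1 and 99.0 CPM in Bojungikgi-tang, 88.9, 101 and 95.3 CPM in Sayeok-tang and 99.7 and 99.5 CPM in Banhasasim-tang, against 79.5, 78.5 and 80.4 CPM in vehicle. Bojungikgi-tang replicate 2, the library that stood apart, lay within the vehicle range. The log2 differences were 0.21 ± 0.065, 0.26 ± 0.065 and 0.33 ± 0.073 (edgeR, adjusted p = 0.0183, 0.00823 and 0.00279). RFC3 was lost without vehicle replicate 1 in Bojungikgi-tang (adjusted p = 0.0657) and held in Sayeok-tang (0.0335) and Banhasasim-tang (0.00931). RFC4, another loader subunit, was called in Banhasasim-tang at 500 µg/mL (33.3 and 32.0 CPM, against 27.1, 25.2 and 25.6 CPM in vehicle, 0.33 ± 0.08, adjusted p = 0.00504), and held without vehicle replicate 1 (0.00618). PCNA, by contrast, was below 0 in all 9 comparisons (-0.19 to -0.048) and called lower in Sayeok-tang at 20 µg/mL, with 216, 209 and 219 CPM against 273, 231 and 231 CPM in vehicle (adjusted p = 0.0412), vehicle replicate 1 being the highest library. That PCNA call was lost without vehicle replicate 1. RFC2 was called lower in 3 comparisons, none of which held without that library.

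PRIM1 at 500 µg/mL had 21.5, 21.3 and 21.9 CPM in Bojungikgi-tang, 20.9, 24.1 and 22.3 CPM in Sayeok-tang and 25.96 and 23.92 CPM in Banhasasim-tang, all above the 18.6, 19.3 and 20.1 CPM of vehicle. Its log2 differences were 0.16 ± 0.06, 0.215 ± 0.06 and 0.37 ± 0.066 (edgeR, adjusted p = 0.0483, 0.016 and 3.61e-04). PRIM1 was lost without vehicle replicate 1 in Bojungikgi-tang (adjusted p = 0.201) and Sayeok-tang (0.0834) and held in Banhasasim-tang (0.00222). POLA1 had 41.7, 49.7 and 43.9 CPM in Bojungikgi-tang and 41.7, 41.2 and 42.0 CPM in Sayeok-tang at 500 µg/mL, against 33.2, 35.9 and 38.6 CPM in vehicle. Neither overlapped the vehicle (0.325 ± 0.069 and 0.21 ± 0.07, adjusted p = 0.0014 and 0.0394), and without vehicle replicate 1 the call held in Bojungikgi-tang (0.0165) and was lost in Sayeok-tang (0.205). POLE, the catalytic subunit of polymerase epsilon, was called in Bojungikgi-tang at 500 µg/mL (0.25 ± 0.065, adjusted p = 0.00625) but not without vehicle replicate 1 (0.0678), whereas POLA2, POLD1 and POLE2 were called in none of the 9 comparisons.

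Of the 4 genes of nucleotide supply, RRM2 was called higher than vehicle in some comparisons, and TYMS and TK1 were called lower. RRM2 had 345, 347 and 343 CPM in Bojungikgi-tang 500 µg/mL and 319, 338 and 344 CPM in Sayeok-tang 500 µg/mL, against 278, 285.5 and 298.5 CPM in vehicle, with no overlap (0.26 ± 0.037 and 0.21 ± 0.037, edgeR adjusted p = 3.12e-05 and 3.65e-04). These calls held without vehicle replicate 1 (adjusted p = 5.25e-04 and 0.00416), whereas the 4 calls of RRM2 at 20 and 100 µg/mL were lost. Banhasasim-tang 500 µg/mL, at 299 and 296 CPM, differed from vehicle by 0.048 and was not called. TYMS, the thymidylate synthase that fluorouracil targets, had 139, 121 and 150 CPM in Bojungikgi-tang 500 µg/mL, 135, 143 and 140 CPM in Sayeok-tang 500 µg/mL and 149 and 139 CPM in Banhasasim-tang 500 µg/mL, against 165, 153 and 156 CPM in vehicle. All 27 extract libraries were below the vehicle, at 121 to 150.0 CPM. The log2 differences at 20, 100 and 500 µg/mL were -0.23, -0.19 and -0.21 in Bojungikgi-tang, -0.24, -0.26 and -0.18 in Sayeok-tang, and -0.25, -0.22 and -0.14 in Banhasasim-tang, called in all but the last (edgeR, adjusted p 0.00385 to 0.0208), and 4 of the 8 calls held without vehicle replicate 1. TK1 had 154.5, 119 and 155 CPM in Bojungikgi-tang 500 µg/mL, 151, 156 and 150.2 CPM in Sayeok-tang 500 µg/mL and 149 and 145 CPM in Banhasasim-tang 500 µg/mL, against 180.1, 164 and 156 CPM in vehicle. Its 6 calls, at -0.33 to -0.22, were all lost without vehicle replicate 1, its highest library. RRM1, the large reductase subunit, was called in none of the 9 comparisons, with differences of -0.087 to 0.03.

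LIG1, DNA ligase 1, had 99.3, 94.97 and 93.3 CPM in Sayeok-tang 500 µg/mL and 91.7 and 92.2 CPM in Banhasasim-tang 500 µg/mL, against 106, 107 and 105 CPM in vehicle. All extract libraries were lower (-0.14 ± 0.042 and -0.20 ± 0.048, edgeR adjusted p = 0.0233 and 0.00448), and 2 of its 5 calls held without vehicle replicate 1. Bojungikgi-tang 500 µg/mL had 102, 104 and 101 CPM and was not called. FEN1 was called lower in 3 comparisons, at -0.20 to -0.16 on the log2 scale, none of which held without vehicle replicate 1. CHAF1A and UHRF1 were called higher in Bojungikgi-tang at 500 µg/mL (0.13 ± 0.046 and 0.19 ± 0.058, adjusted p = 0.0365 and 0.0162). CHAF1A held without vehicle replicate 1 (adjusted p = 0.0331, edgeR) and UHRF1 was lost (0.0645). The CHAF1A call was lost without vehicle replicate 2 and without vehicle replicate 3. The low-abundance genes gave less precise values. E2F2 had 10.1, 11.99 and 10.1 CPM in Bojungikgi-tang 500 µg/mL, against 8.55, 9.29 and 9.21 CPM in vehicle (0.24 ± 0.072, adjusted p = 0.0131), and CCNE2 had 13.7, 15.2 and 15.9 CPM in Sayeok-tang 500 µg/mL, against 11.8, 11.9 and 12.96 CPM (0.29 ± 0.078, adjusted p = 0.0133). Both calls were lost without vehicle replicate 1 (adjusted p = 0.0825 and 0.0617, edgeR), as were the other calls of these 2 genes. E2F1 was called lower in Sayeok-tang at 20 µg/mL (-0.261), and that call was lost too. GINS4 had 10.4, 10.2 and 9.95 CPM in Bojungikgi-tang 500 µg/mL and 9.76, 9.89 and 10.3 CPM in vehicle, which overlapped. MCM7, the second most abundant gene per kb, likewise had 420.4, 408 and 422 CPM in Bojungikgi-tang 500 µg/mL and 427, 409.5 and 411 CPM in vehicle, a difference of 0.002. This was the only 1 of its 9 differences above 0, the lowest being -0.14. MCM7 was called lower in Banhasasim-tang at 20 µg/mL, a call lost without vehicle replicate 1.

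**Figure D4:**
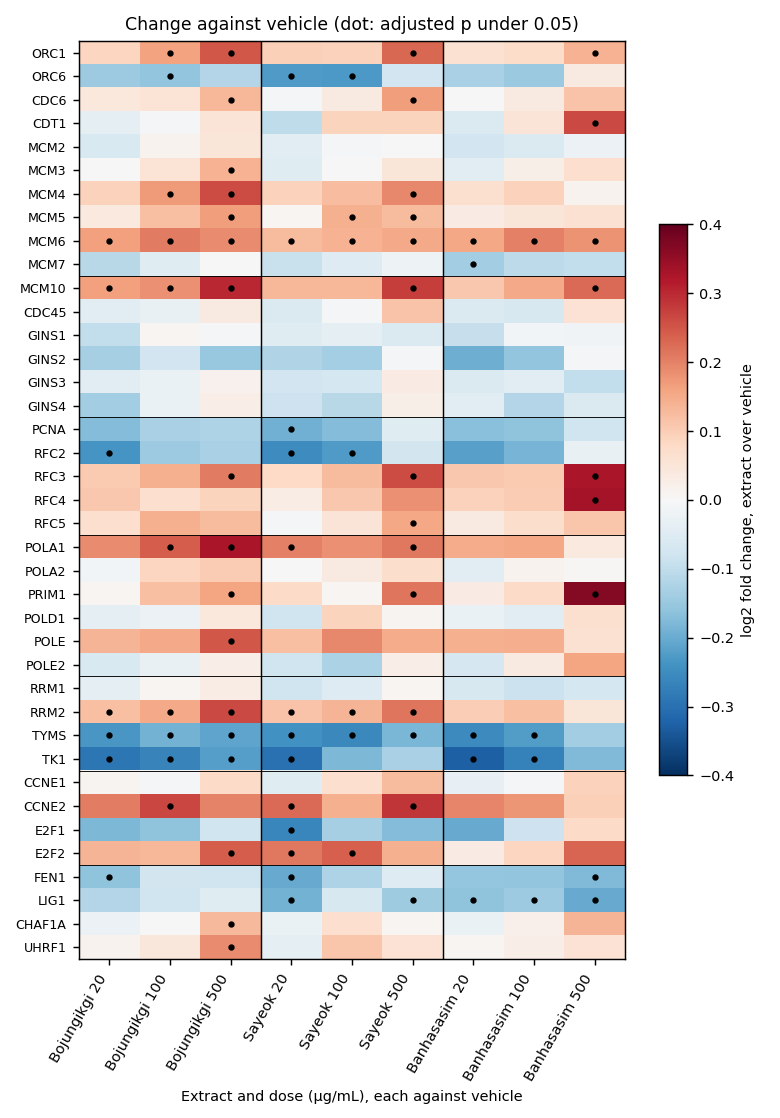
Log2 fold change, extract over vehicle, of each of the 39 genes (rows, by role) in each extract with replicates and dose (columns, in µg/mL). Colour gives the difference and dots mark an edgeR adjusted p under 0.05. MCM6 lies above 0 in every column (0.13 to 0.21), and TYMS and TK1 lie below 0 (-0.26 to -0.14 and -0.33 to -0.13).

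In Yijung-tang no gene of the 39 differed from the vehicle mean by 1.5-fold at any dose. Past that ratio and outside the vehicle range were 7.24%, 8.22% and 8.16% of all genes at 20, 100 and 500 µg/mL. The median log2 ratios of the 39 genes were -0.010, 0.049 and 0.133 at 20, 100 and 500 µg/mL. Above the range of the vehicle libraries lay 15, 18 and 27 of the 39 genes at 20, 100 and 500 µg/mL (38.5%, 46.2% and 69.2%, against 30.2%, 30.6% and 30.5% of all genes), and below it 11, 9 and 3 (28.2%, 23.1% and 7.69%, against 31.3%, 32.9% and 32.6%). MCM6 had 149 CPM, RRM2 338 CPM, TYMS 142 CPM and TK1 150.1 CPM in that library.

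The extracts were then compared with each other at 500 µg/mL, in 3 comparisons of which p-values were adjusted within each over all genes. Between Sayeok-tang and Bojungikgi-tang no gene of the 39 was called by edgeR (0.24% of all genes were) or by DESeq2, and 5 had an unadjusted p under 0.05 (12.8%, against 11.3% of all genes). The 95% intervals of the 39 log2 differences lay within -0.257 to 0.273. The sample codes of Banhasasim-tang form another series than those of Bojungikgi-tang and Sayeok-tang, so code series and extract cannot be told apart in the comparisons with Banhasasim-tang. Between Banhasasim-tang and Bojungikgi-tang 3 genes were higher and 4 lower (6.29% and 5.9% of all genes). CDT1 had 64.7 and 60.3 CPM in Banhasasim-tang, against 55.5, 51.9 and 54.5 CPM in Bojungikgi-tang (0.21 ± 0.067, edgeR adjusted p = 0.0378). RFC4 had 33.3 and 32.0 CPM in Banhasasim-tang and 30.4, 23.5 and 28.97 CPM in Bojungikgi-tang (0.24 ± 0.08, adjusted p = 0.0468), the lowest being replicate 2. PRIM1 was the third that was higher (0.21 ± 0.066, adjusted p = 0.0414). The 4 lower genes were RRM2, with 299 and 296 CPM in Banhasasim-tang and 345, 347 and 343 CPM in Bojungikgi-tang (-0.215 ± 0.041, adjusted p = 0.00114), MCM4 (-0.25 ± 0.055, adjusted p = 0.00459), POLA1 (-0.29 ± 0.078, adjusted p = 0.0182) and LIG1 (-0.15 ± 0.048, adjusted p = 0.035). Without Banhasasim-tang 500 µg/mL replicate 2, RRM2 alone was still called, with adjusted p of 0.113 for MCM4 and 0.254 to 0.425 for the other 5 genes. Without replicate 3, RFC4 (0.0856) and LIG1 (0.0925) were lost. Without Bojungikgi-tang 500 µg/mL replicate 2, CDT1 (adjusted p = 0.124), RFC4 (0.262), PRIM1 (0.118), POLA1 (0.109) and LIG1 (0.0982) were lost, and without its replicate 1 PRIM1 (0.0664) and LIG1 (0.0653).

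Between Banhasasim-tang and Sayeok-tang at 500 µg/mL no gene was called higher and 1 lower (2.72% and 1.6% of all genes). This was RRM2, with 299 and 296 CPM in Banhasasim-tang and 319, 338 and 344 CPM in Sayeok-tang (-0.165 ± 0.041, edgeR adjusted p = 0.0177). That call was lost without either Banhasasim-tang library (adjusted p = 0.144 and 0.103) and without Sayeok-tang replicate 2 (0.066) or 3 (0.107). Interaction terms tested whether the change from 20 to 500 µg/mL differed between extracts. No gene of the 39 was called for Sayeok-tang minus Bojungikgi-tang (0.0266% of all genes), Banhasasim-tang minus Bojungikgi-tang (2.06%) or Banhasasim-tang minus Sayeok-tang (1.04%) by edgeR. At an unadjusted p under 0.05 there were 0, 6 and 3 genes (0%, 15.4% and 7.69%, against 4.62%, 15.3% and 9.42% of all genes), and DESeq2 called 0, 1 and 0. RRM2 had the smallest p of these, at -0.19 ± 0.058 for Banhasasim-tang minus Bojungikgi-tang (unadjusted p from edgeR 0.003, adjusted p = 0.0893).

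Related lists were set beside the 39 genes. Of 42 other replication factors, 1 was called higher between 500 and 20 µg/mL in Bojungikgi-tang (HELLS, a chromatin remodeller, 0.19 ± 0.047, edgeR adjusted p = 0.0289), none in Sayeok-tang (11 at an unadjusted p under 0.05), and in Banhasasim-tang TIPIN and DSCC1 were higher (0.27 and 0.21) and RRM2B, a p53-induced reductase subunit, was lower (-0.24). The calls were 2.38%, 0% and 7.14% of this list in Bojungikgi-tang, Sayeok-tang and Banhasasim-tang, against 1.76%, 3.17% and 7.82% of all genes. At an unadjusted p under 0.05 were 13.9% of all genes in Sayeok-tang. Log2 differences of the other replication factors were above 0 for 31, 35 and 30 of 42. Against vehicle at 500 µg/mL 16 rose and 6 fell in Bojungikgi-tang (38.1% and 14.3%, against 14.3% and 15.4% of all genes), 13 and 3 in Sayeok-tang (31% and 7.14%, against 8.33% and 8.27%), and 7 and 3 in Banhasasim-tang (16.7% and 7.14%, against 8.16% and 7.12%). Without vehicle replicate 1 they were 11 and 2, 6 and 0, and 5 and 1 (7.09% and 7.96%, 3.75% and 3.9%, and 6.24% and 5.5% of all genes). Of 24 tested genes of G1/S control, CDC25A, the phosphatase that activates CDK2, was called between doses (0.18 ± 0.046 in Bojungikgi-tang, adjusted p = 0.0311). That was 4.17% of the list, against 1.76% of all genes, and none was called in Sayeok-tang or Banhasasim-tang (3.17% and 7.82% of all genes). Against vehicle at 500 µg/mL the G1/S control genes had 10 higher and 3 lower in Bojungikgi-tang (41.7% and 12.5%, against 14.3% and 15.4% of all genes), 5 and 2 in Sayeok-tang (20.8% and 8.33%, against 8.33% and 8.27%) and 2 and 1 in Banhasasim-tang (8.33% and 4.17%, against 8.16% and 7.12%), with medians of 0.098, 0.081 and 0.01. They had 5 and 3 (20.8% and 12.5%), 1 and 1 (4.17% each), and 1 and 1 (4.17% each) without vehicle replicate 1. All genes then had 7.09% and 7.96%, 3.75% and 3.9%, and 6.24% and 5.5%, so Sayeok-tang and Banhasasim-tang were close to the shares of all genes. CDK6, a cyclin D kinase, was higher than vehicle at 500 µg/mL in Bojungikgi-tang (189 ± 18.5 CPM against 125 ± 16.4 CPM, SD, n = 3 each, adjusted p = 5.69e-05), Sayeok-tang (0.49 ± 0.085, adjusted p = 5.57e-04) and Banhasasim-tang (0.42 ± 0.095, adjusted p = 0.00376), and held without vehicle replicate 1 in each (adjusted p = 4.58e-04 to 0.0192). CDK4, the other cyclin D kinase, was lower in Bojungikgi-tang (150 ± 16.3 CPM against 192 ± 16.8 CPM in vehicle, SD, n = 3 each, log2 difference -0.35 ± 0.061, edgeR adjusted p = 2.72e-04) and in Sayeok-tang (-0.25 ± 0.061, adjusted p = 0.0063), the second of which was lost without vehicle replicate 1 (0.0666). CDKN2C, an inhibitor of both kinases, was lower in Bojungikgi-tang, Sayeok-tang and Banhasasim-tang (-0.35, -0.41 and -0.455, adjusted p = 0.00297, 0.0016 and 0.00143), and CDKN1A, the p53 target that inhibits cyclin E kinase, in Bojungikgi-tang (-0.41 ± 0.07, adjusted p = 2.3e-04). The CDKN2C and CDKN1A calls held without that library.

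The 23 G2/M genes act mainly after replication, in mitotic entry and division, though not all of them only then. Their log2 differences between 500 and 20 µg/mL were above 0 for 22 of 23 in Bojungikgi-tang (median 0.072) and 22 of 23 in Sayeok-tang (0.084). Between 500 and 20 µg/mL, TPX2 was higher in Bojungikgi-tang (0.16 ± 0.043, edgeR adjusted p = 0.0461), and CDC20, CCNB1 and CCNA2 were higher in Sayeok-tang (0.24, 0.195 and 0.14). None was called in Banhasasim-tang (4 at an unadjusted p under 0.05, as were 20.6% of all genes), where 12 were above 0 and 11 below. The calls were 4.35%, 13% and 0% of the G2/M list in Bojungikgi-tang, Sayeok-tang and Banhasasim-tang, against 1.76%, 3.17% and 7.82% of all genes. Against vehicle at 500 µg/mL, 2 were called higher and 10 lower in Bojungikgi-tang (8.7% and 43.5%, against 14.3% and 15.4% of all genes), 0 and 6 in Sayeok-tang (0% and 26.1%, against 8.33% and 8.27%), and 0 and 11 in Banhasasim-tang (0% and 47.8%, against 8.16% and 7.12%). Without vehicle replicate 1 they were 1 and 7 (4.35% and 30.4%, against 7.09% and 7.96% of all genes), 0 and 6 (0% and 26.1%, against 3.75% and 3.9%), and 0 and 10 (0% and 43.5%, against 6.24% and 5.5%). Among them PLK1, the kinase that drives mitotic entry, had 146 ± 6.32 CPM in Bojungikgi-tang, 151 ± 3.23 CPM in Sayeok-tang and 146 ± 8.5 CPM in Banhasasim-tang, against 187 ± 8.52 CPM in vehicle (SD, n = 3, 3, 2 and 3), with log2 differences of -0.35, -0.31 and -0.36 (adjusted p = 8.81e-05, 5.37e-04 and 2.18e-04), all called without that library too. The mean log2 deviation of the G2/M list from its average over all libraries was 0.13 to 0.15 in the vehicle and at most 0.071 in extract libraries. That of the 39 genes was -0.032 to 0.005 in the vehicle.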

How the data were processed

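The authors deposited expected counts per gene from RSEM for HT29 mRNA libraries. Per the submitters' processing notes, reads were handled with RSEM 1.3.3, STAR 2.7.3a, Trim Galore 0.6.5 and FastQC 0.11.9 on build GRCh38 (hg38). Which gene annotation and which strand setting were used is not given in the sources used here. From a table of 60675 genes, 30 value columns were matched to these samples by name, and 240 others were left unused. Non-whole values (25.48% of those above 0) were rounded, which moved them by 0.5 or less. Per the labels, kits were directional and reads 100 bp, and the vehicle held 0.1% DMSO, while the series text gives 2%. All titles name batch E. Sample codes put the vehicle in a series of its own, Banhasasim-tang and Yijung-tang in another, and Bojungikgi-tang and Sayeok-tang in another still, so code series cannot be told apart from vehicle, nor from extract where Banhasasim-tang is set against Bojungikgi-tang or Sayeok-tang.

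The 39 genes, the related lists and the comparisons were chosen with earlier results of these data known. Symbols were found for 56558 IDs (93.21%), and coordinates and exon lengths came from GENCODE 29. Genes were filtered with filterByExpr (minimum count 10), scaled by TMM and fitted in edgeR 4.0.16 with 1 mean per group over all 30 libraries and robust dispersion estimates (residual degrees of freedom 17, biological coefficient of variation of 6.38%). The 18 comparisons used two-sided quasi-likelihood tests, called at a Benjamini-Hochberg adjusted p of 0.05 over 18783 genes. As SE, the size of the log2 difference over the root of its F statistic is given. Yijung-tang ratios used a pseudocount of 0.05 CPM. A floor of 3 counts is 0.0419 to 0.0827 CPM and covers counting error only. Values per library are given for the 12 genes with the smallest adjusted p in any comparison and the 3 highest and 3 lowest per kb. CDC6, CDT1 and RFC4 are shown per library outside this rule, chosen after their values were seen. The fitting code was tested on simulated data. Alternatives were DESeq2, median-ratio size factors, no filter, a replicate block, only the compared groups, each library left out, and, for Yijung-tang, a pseudocount of 1 CPM and scaling by total count. Leaving out mitochondrial genes was added after the data were seen.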

Additional observations from a re-analysis of the deposited data

How the results depend on the processing

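The count of the 39 genes called in each comparison is given here under each alternative that moved it by more than 1.5 times, and no named call changed direction under any alternative. Bojungikgi-tang 500 against 20 µg/mL (2 genes) gave 1 under median-ratio size factors, 1 without mitochondrial genes, 0 with no filter on low counts, 0 with only the compared groups and 5 with DESeq2. Sayeok-tang 500 against 20 µg/mL (1 gene) gave 0 with no filter, 2 with the replicate block and 3 with only the compared groups. With only the compared groups in the fit, which leaves fewer samples to estimate the spread, counts against vehicle were 0, 6 and 3 at 500 µg/mL in Bojungikgi-tang, Sayeok-tang and Banhasasim-tang, 0, 1 and 0 at 100 µg/mL, and 3, 3 and 0 at 20 µg/mL, and Banhasasim-tang gave 0 against Bojungikgi-tang and 0 against Sayeok-tang at 500 µg/mL. For 20 µg/mL against vehicle, DESeq2 gave 11 in Bojungikgi-tang and 8 in Banhasasim-tang (7 and 5 with edgeR), and with no filter Banhasasim-tang gave 3. Banhasasim-tang against Sayeok-tang gave 2 with DESeq2, and the interaction of Banhasasim-tang minus Bojungikgi-tang gave 1. With the replicate block, Bojungikgi-tang 20 µg/mL against vehicle gave 11 and Banhasasim-tang against Sayeok-tang 3. Over all genes, DESeq2 called 481 for Bojungikgi-tang 500 against 20 µg/mL (331 with edgeR). At 20 µg/mL against vehicle it called 3852 in Bojungikgi-tang and 3025 in Banhasasim-tang (3440 and 2378). It called 940 for Banhasasim-tang against Sayeok-tang (810) and 567 for the interaction (386). The block called 623, 3709 and 1009 for its comparisons, in the order given above (596, 3440 and 810). Such counts are not given for the other alternatives of this paragraph. Deviations of same-number libraries from their group means correlated at -0.16 to 0.195 over the comparisons, and the main fit used no pairing. With so few libraries per group, such values cannot show whether same-number libraries shared a culture or a batch.

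Leaving out each library in turn gave 0 to 0 in Bojungikgi-tang, 0 to 1 in Sayeok-tang and 0 to 3 in Banhasasim-tang for 500 against 20 µg/mL. Against vehicle it gave 9 to 18, 6 to 13 and 5 to 9 at 500 µg/mL in Bojungikgi-tang, Sayeok-tang and Banhasasim-tang, 1 to 11, 1 to 13 and 0 to 8 at 100 µg/mL, and 2 to 12, 3 to 14 and 0 to 9 at 20 µg/mL. Between extracts it gave 1 to 7 for Banhasasim-tang against Bojungikgi-tang and 0 to 1 against Sayeok-tang. Where a group was left with 1 library, that library was assumed to vary like the others. Every highest count against vehicle was reached without vehicle replicate 3. Of all genes, 32.3%, 20.3% and 16.4% were then called at 500 µg/mL in Bojungikgi-tang, Sayeok-tang and Banhasasim-tang. At 100 µg/mL they were 21.7%, 19.1% and 17.5%, and at 20 µg/mL 23.2%, 23.4% and 18.6%. Of 99 called gene and comparison pairs, 0 were lost with DESeq2, 4 with the replicate block, 6 with median-ratio size factors, 6 without mitochondrial genes, 33 with no filter and 80 with only the compared groups. The precision per gene is limited by 1 to 3 libraries per group.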
